A study of Mus musculus with 21 samples.

Results

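The comparison set the livers of 8 mice fed CDA-HFD for 16 weeks against the livers of 8 mice fed it for 8 weeks, which makes 16 of the 21 livers sequenced in the series. CDA-HFD is a diet deficient in choline, with defined amino acids and much fat, that produces fatty liver with inflammation and scarring in mice. All animals were labelled wild type, and the labels give no allele, strain, sex or other agent. The 5 remaining livers came from mice on normal chow for 8 weeks, a point that the labels call week 0, and they serve as the start from which a gene had or had not moved by 8 weeks. The 16-week livers have no chow group of their own age, and the week 0 label leaves it uncertain whether the 8-week livers have one. An effect of age cannot be told apart from one of the diet. Liver RNA was made into TruSeq Stranded Total RNA libraries, and the values are counts of reads per gene.

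In this model the liver first stores fat, because without choline it packages less triglyceride for export. Hepatocyte injury then recruits macrophages, and hepatic stellate cells turn from vitamin A storing cells into myofibroblasts that deposit collagen. In long-standing injury, cells with bile duct markers spread from the portal tracts, a change called the ductular reaction. In whole-liver RNA a lower level can come from fewer cells of a type or from less RNA per cell, and these cannot be told apart.

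Each library held between 29037525 and 45868842 counts at 8 weeks, between 35254088 and 48901145 at 16 weeks and between 33522456 and 42586342 on chow. Levels are given as CPM, the usual scaling of counts to library size, here the TMM-scaled one, and changes as log2 differences of 16 minus 8 weeks with their standard errors. A gene was called, and is said to have risen or fallen, at a Benjamini-Hochberg adjusted p under 0.05 in edgeR's quasi-likelihood test over 17104 genes. Nothing in the labels says more of how the animals were housed or handled, so these p-values measure the spread between the samples given. With scaling by total counts alone the median log2 change of all genes was 0.38 instead of 0.00, and 94.8% of the called genes were higher at 16 weeks instead of 49%, so that every direction below is relative to the middle of all genes.

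Replicate 3 of the 8-week group stood apart from its group. Across genes, Pearson's r of its log2 CPM with the 7 other 8-week livers was 0.831 to 0.898, and among those 7 it was 0.961 to 0.994. It held transcripts of squamous epithelium (summed level 1777 CPM), skeletal muscle (3143 CPM), fat (417 CPM) and red blood cells (1129 CPM). Protein genes of the mitochondrial genome summed to only 5027 CPM there, and to 22781 to 34318 CPM in the other 8-week livers. The TMM factor of this library was 0.496, where the other 8-week livers had 0.884 to 1.17. A lower factor gives higher CPM for the same counts, so the levels quoted for 8-week replicate 3 are scaled up relative to its group. Transcripts of exocrine pancreas summed to 8944 CPM in 8-week replicate 4 and 385 CPM in replicate 5, against 0.42 to 3.91 CPM in the 16-week livers. In the remaining 8-week livers they summed to 1.24 to 47.7 CPM. Smaller sums of squamous transcripts were found in 8-week replicate 6 (289.9 CPM) and 16-week replicates 1, 4 and 7 (257, 80.7 and 157 CPM). In the same 4 livers skeletal muscle transcripts summed to 387, 457, 458 and 262 CPM, and in chow replicate 5 to 443 CPM, against at most 42.1 CPM in the remaining livers other than 8-week replicate 3. Each result was therefore computed again without 8-week replicate 3, and that value stands beside many of the results below. Without that library 2 of 13 skeletal muscle transcripts were called higher at 16 weeks, and with it none. The defining hepatocyte transcripts were present throughout, with Alb, serum albumin, at 58587 CPM or more in each CDA-HFD liver.

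**Figure D1:**
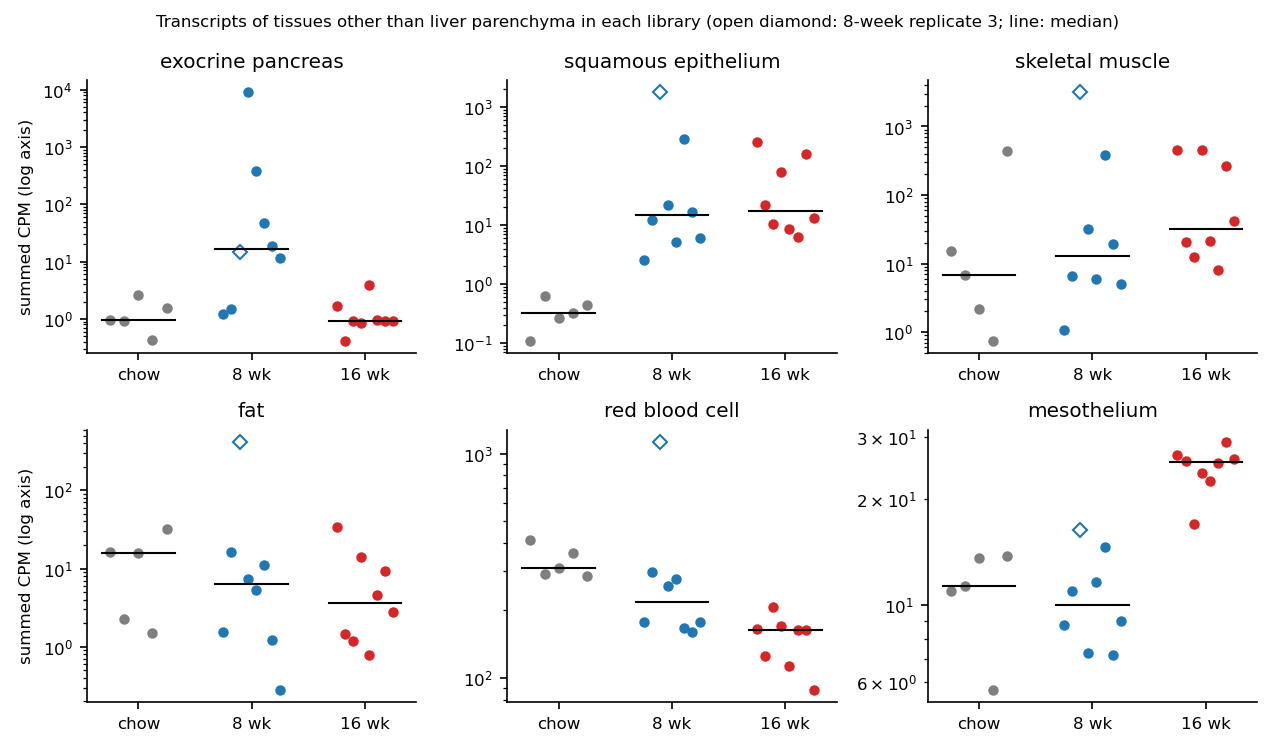
Summed CPM (log axis) of marker lists of 6 tissues or cell types other than liver parenchyma, 1 point per library in the chow, 8-week and 16-week groups, with a line at the median and an open diamond for 8-week replicate 3. Exocrine pancreas transcripts reached 8944 CPM in 1 8-week liver, 8-week replicate 3 was highest in 4 of the other lists, and the mesothelium sums of all 16-week livers lay above those of all 8-week livers.

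Between 8 and 16 weeks, 3703 genes were called, 21.6% of those tested. Of these, 1814 rose (10.6%) and 1889 fell (11%). Without 8-week replicate 3, 4631 were called (27.1%), of which 2515 rose (14.7%) and 2116 fell (12.4%). The fits with and without that library shared 1803 genes that rose and 1485 that fell, and 0 genes were called in opposite directions. Changes of at least 2-fold were called for 8.51% of genes, 902 rises (5.27%) and 553 falls (3.23%). In both fits they numbered 842 rises but only 119 falls. Most falls of that size were therefore under 2-fold or not called once the outlying library was left out.

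Groups that did not overlap, every 16-week liver on the same side of every 8-week liver, were found for 528 genes (3.09%). Of these, 441 were higher (2.58%) and 87 lower (0.509%) at 16 weeks. Without 8-week replicate 3 the counts were 616 (3.6%) and 137 (0.801%), or 4.4% in all. In every one of 21 fits that left out 1 library, 2171 genes stayed called, 1299 higher and 872 lower. The count of falls depended on single livers. It was 1236, 1020, 1151 and 916 without 16-week replicates 2, 5, 6 and 8, and 2827 without 8-week replicate 6.

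**Figure D2:**
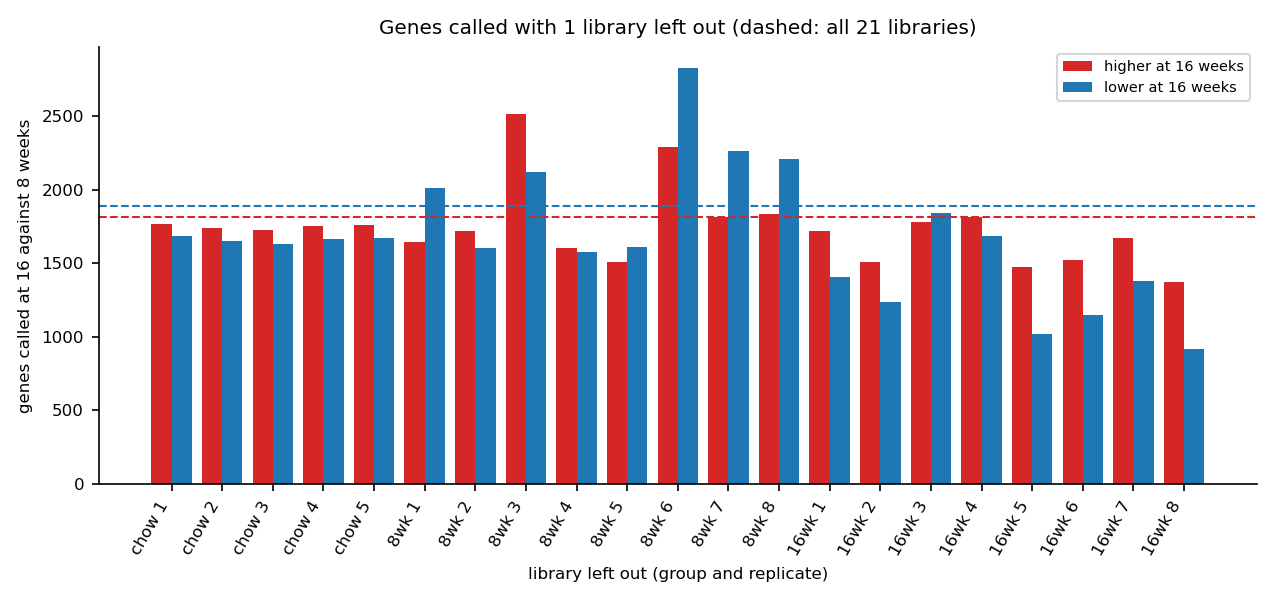
Genes called higher (red) and lower (blue) at 16 against 8 weeks in 21 fits that each omit 1 library, with dashed lines at 1814 and 1889, the counts with all libraries. The number of genes lower ran from 916 without 16-week replicate 8 to 2827 without 8-week replicate 6.

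Most of the genes that differed from chow at 8 weeks had not moved detectably further. At 8 weeks against chow 8772 genes were called (51.3%), with 30.8% higher and 20.5% lower, and each was classed by what followed. Genes called again in the same direction are termed progressing, and 935 progressed upward and 311 downward (1412 and 762 without 8-week replicate 3). Those called in the opposite direction are termed reversing, and 504 reversed after a rise and 119 after a fall (370 and 188 without that library). A plateau was given to 2667 genes that were not called and whose 95% interval of the further change lay within 1.5-fold either way (4582 without that library). The other 4236 were undecided, as their intervals were too wide (2446 without that library). Late rises, called only from 8 to 16 weeks, numbered 760, and late falls 1074 (915 and 984 without that library). The 8-week livers enter both contrasts with opposite sign, so a high or low 8-week value alone moves a gene toward the reversing class and these counts are a description.

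**Figure D3:**
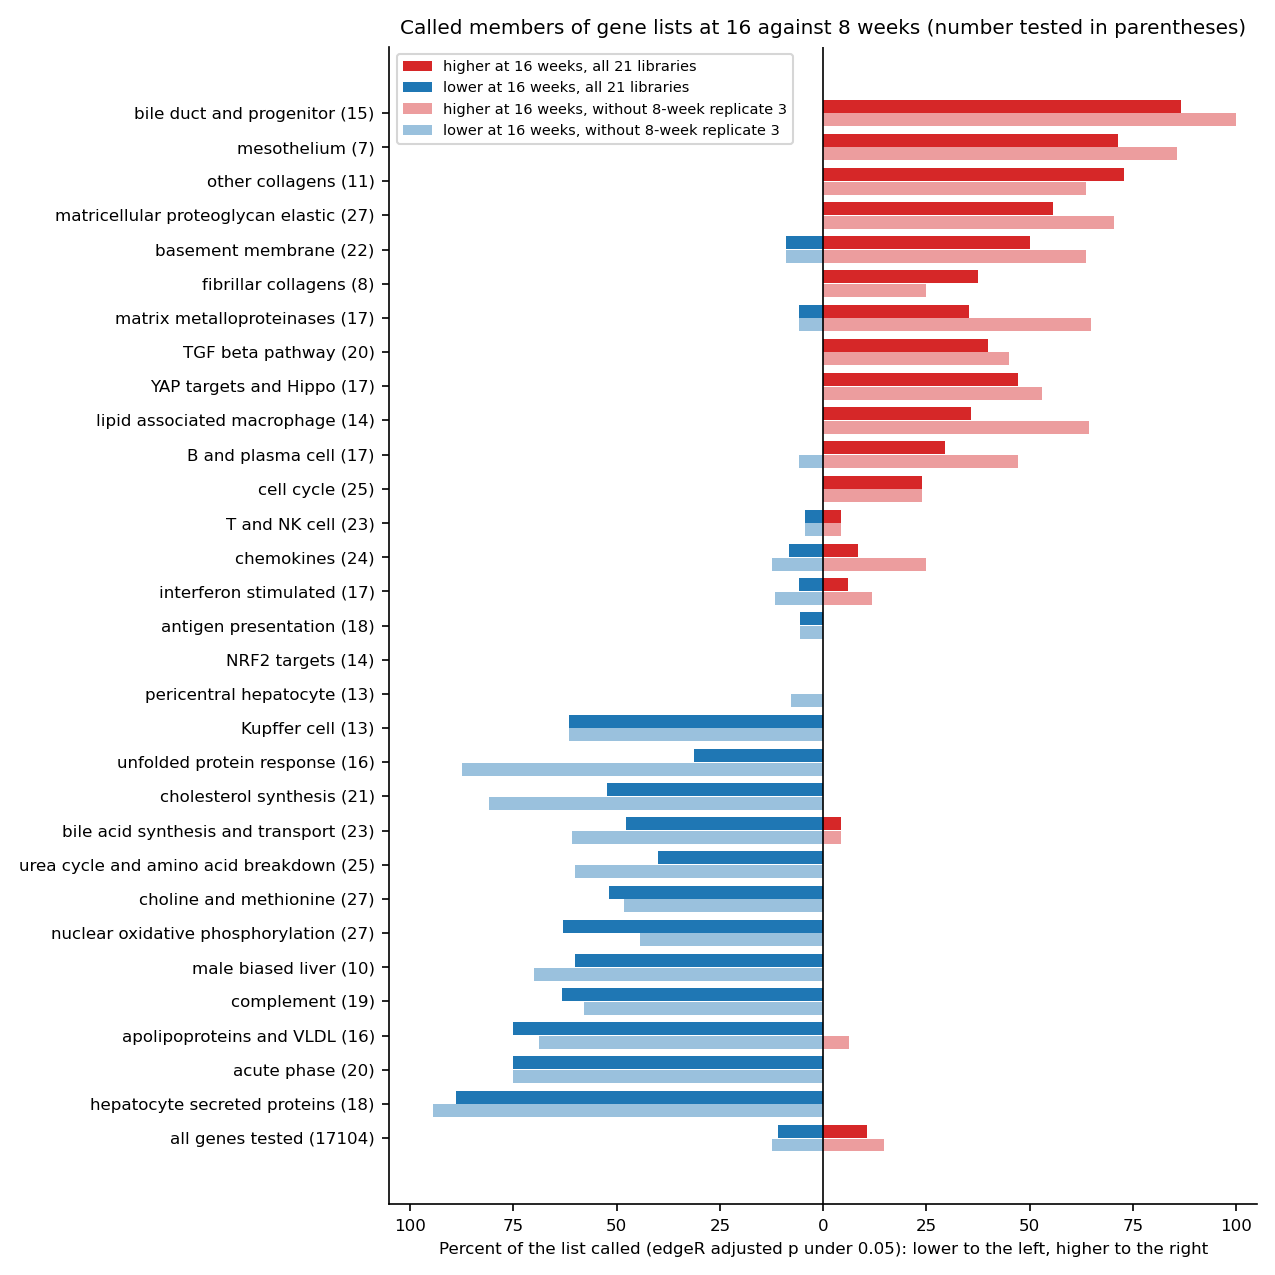
Share of each gene list called at 16 against 8 weeks, with lower members to the left and higher members to the right, and paler bars for the fit without 8-week replicate 3. Lists of bile duct, matrix and mesothelial genes lie to the right and lists of hepatocyte products and Kupffer cells to the left, with all 17104 genes tested at the foot for reference.

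The lists name 1034 genes by pathway or cell type, of which 1007 passed the filter on low counts. Counts of members are given of those that passed, and 10.6% of all genes tested rose and 11% fell. With total counts these shares were 26% and 1.43%, so rises in a list are common there. Of all 17104 genes, 3003 rose and 2416 fell with limma-voom, and 2339 rose and 2190 fell with DESeq2. In 28 of the 65 lists edgeR called 0 members higher. In those lists at most 1 member was higher at an unadjusted p under 0.05, at most 1 with DESeq2, and at most 5 with limma-voom (conjugation enzymes). In 21 lists edgeR called 0 lower, with at most 3 lower at an unadjusted p under 0.05 (markers of activated stellate cells), 1 with DESeq2 and 3 with limma-voom.

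Among the 65 lists, bile duct and progenitor markers had the largest median rise. Of 15 bile duct and progenitor markers 13 rose, and all 15 rose without 8-week replicate 3, with median log2 changes of 1.73 and 2.03. The level summed over the list ran from 152 to 565 CPM at 8 weeks (median 271) and from 585 to 1802 CPM at 16 weeks (median 1233), against 106 to 138 CPM on chow. All 16-week livers lay above all 8-week livers.

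Epcam (ENSMUSG00000045394, GRCm38 chr17:87635979-87651129, plus strand), an adhesion molecule of biliary cells, had a chow median of 1.23 CPM. It ran from 1.62 to 13 CPM at 8 weeks (median 3.17) and from 12.5 to 52.5 CPM at 16 weeks (median 31.4). It rose at both steps, and the ranges of the 2 times overlapped narrowly (log2 change 2.80 ± 0.38, edgeR adjusted p = 5.51e-05). Cftr (ENSMUSG00000041301, chr6:18170687-18322768, plus strand), the chloride channel of duct cells, was at 0.186 to 0.793 CPM at 8 weeks (median 0.323) and at 2.04 to 5.99 CPM at 16 weeks (median 3.03). Its groups did not overlap (3.12 ± 0.40, edgeR adjusted p = 2.46e-05), and its rise was late, as 8 weeks against chow gave an edgeR adjusted p of 0.0895. Krt19 (ENSMUSG00000020911, chr11:100140810-100148665, minus strand), a keratin of bile ducts, shows what the outlying library does. Its 8-week median was 2.97 CPM but 8-week replicate 3, the library with keratins of squamous epithelium, held 31.7 CPM, above the 8.61 to 23.7 CPM of the 16-week livers. The change was 1.16 ± 0.53 (edgeR adjusted p = 0.112) with that library and 2.18 without it (edgeR adjusted p = 0.000159), where the groups no longer overlapped.

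Transcription factors and surface proteins that mark duct and progenitor cells moved in the same direction. Sox9, a transcription factor of duct and progenitor cells, rose by 0.86 (edgeR adjusted p = 0.00106), and Sox4, which acts with it in duct formation, by 1.83. Prom1, a progenitor marker, rose by 2.78 from a median of 1.41 to 10.7 CPM with no overlap between the groups. Cd24a, Bicc1, Muc1, Krt23 and Pkhd1 rose by 1.53 to 2.07. At 8 weeks against chow 9 of the 15 had been called higher and 1 lower, so the list holds both progressing and late genes.

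The 10 largest rises among genes whose groups did not overlap were those of Plekhs1, Scube3, Clic6, Ugt8a, Cftr, Cldn8, Slit2, Scara3, Fbn2 and Hkdc1. Plekhs1 (ENSMUSG00000035818, chr19:56461640-56486752, plus strand) went from a median of 0.237 to 4.36 CPM, and 3.43 ± 0.37 was its log2 change (edgeR adjusted p = 7.13e-06). Scara3, a scavenger receptor family member, was the most abundant of the 10, at 3.83 to 17.3 CPM at 8 weeks and 24.4 to 89.8 CPM at 16 weeks (log2 change 2.98). Cldn8 encodes a claudin of tight junctions, Slit2 a guidance ligand, Fbn2 a fibrillin and Hkdc1 a hexokinase-related protein, and each was at 1.34 CPM or less in every 8-week liver. All 10 stayed called in each of the 21 fits that left out 1 library. Other epithelial genes moved in the same direction, among them Cldn4, a claudin (log2 change 2.98), Tspan8, a tetraspanin (2.88), and Anxa13, an annexin of epithelia (2.95). Cdh1, E-cadherin, rose by 1.08, with 8.2 to 90.8 CPM at 8 weeks and 93.5 to 169 CPM at 16 weeks.

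**Figure D4:**
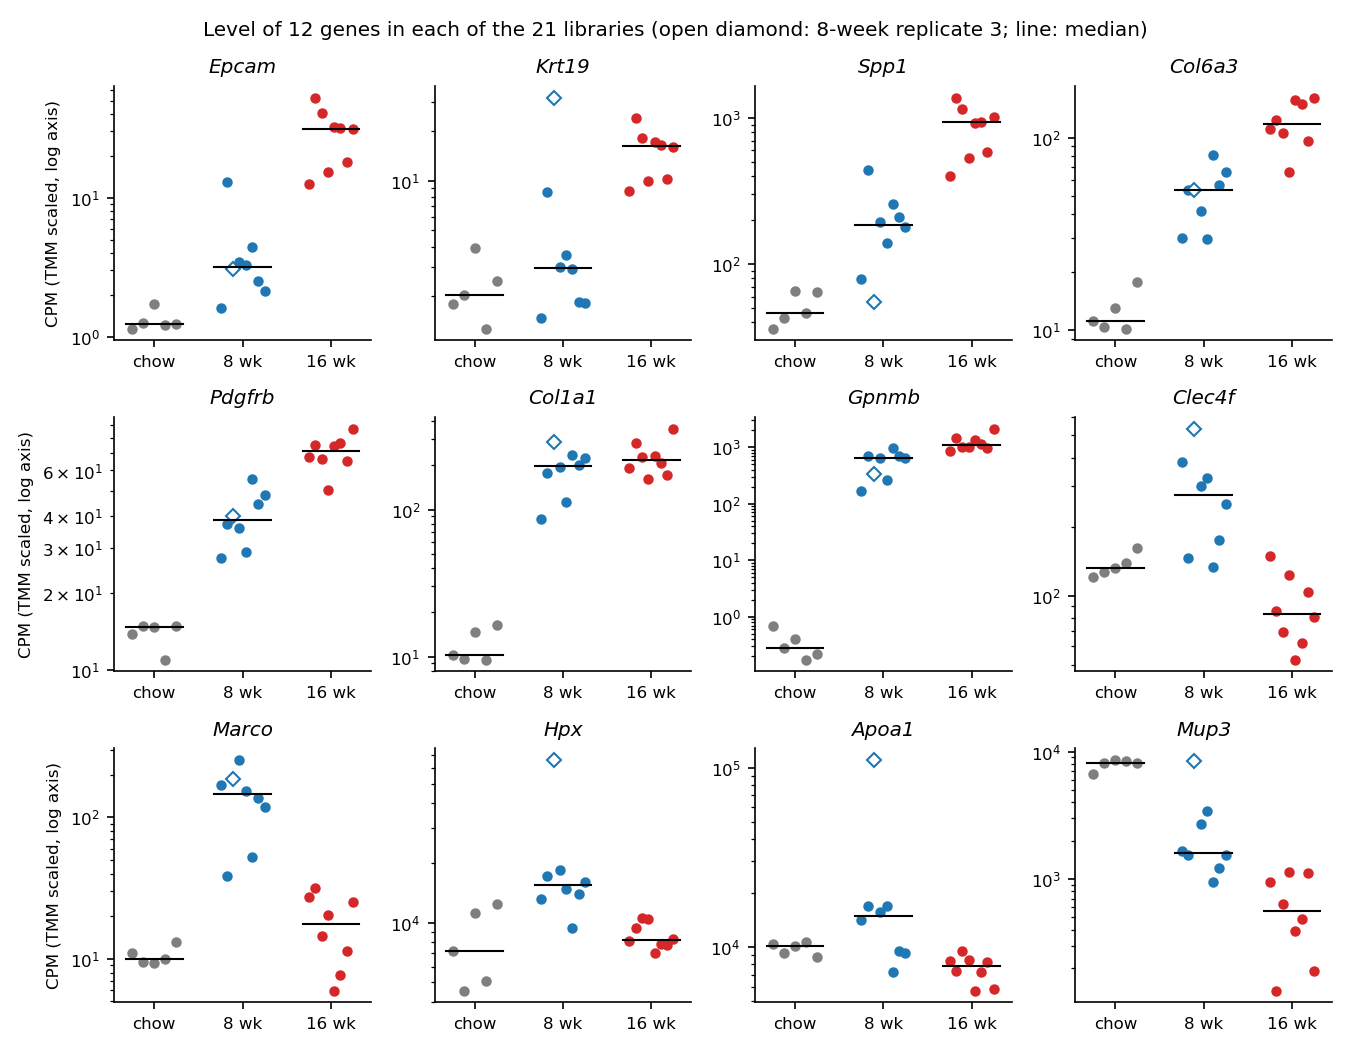
Level of 12 genes (CPM, log axis) in each of the 21 libraries, 1 point per liver with a line at the group median and an open diamond for 8-week replicate 3. Epcam and Spp1 climb at both steps, the 8-week and 16-week points of Col1a1 overlap, Clec4f and Marco come down after a rise, and the diamond lies far above its group for Krt19, Hpx and Apoa1.

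Of 8 fibrillar collagen genes 3 rose (2 without 8-week replicate 3) and 0 fell, with a median log2 change of 0.38. With total counts 5 rose and the median was 0.77. Col1a1 (ENSMUSG00000001506, chr11:94936224-94953042, plus strand), a chain of type I collagen, had risen from a chow median of 10.3 CPM to 86.5 to 289 CPM at 8 weeks (median 197). At 16 weeks it lay between 162 and 356 CPM (median 217), within or close to the 8-week range. The further change of 0.27 ± 0.22 was not called (edgeR adjusted p = 0.383), and its interval was too wide for a plateau. Col1a1 was called higher with total counts (0.70, edgeR adjusted p = 0.0346) and without the 5 libraries with squamous transcripts (0.66, edgeR adjusted p = 0.036). Col1a2, its partner chain, differed by 0.47 ± 0.18 (edgeR adjusted p = 0.0713). It was called higher in those settings too (0.85 and 0.72, edgeR adjusted p = 0.0116 and 0.0162) and without 8-week replicate 6 (0.53, edgeR adjusted p = 0.0437). Col3a1, type III collagen, differed by 0.56 ± 0.20 at an edgeR adjusted p of 0.049, a call that was lost in 17 of the 21 fits without 1 library, 8-week replicate 3 among them (0.48, edgeR adjusted p = 0.0591). Col5a2, which regulates fibril width, rose by 0.78 from a median of 30.4 to 49.6 CPM, and Col27a1 rose by 0.73 after a fall, with medians of 55, 10.3 and 16.8 CPM on chow, at 8 and at 16 weeks.

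Of 22 basement membrane genes 11 rose and 2 fell (14 and 2 without 8-week replicate 3), with a median of 0.57, and 8 of the 22 had groups without overlap, against 3.09% of all genes. Their summed level overlapped between the times, at 1154 to 1872 CPM at 8 weeks (median 1600.0) and 1219.8 to 1692 CPM at 16 weeks (median 1491). The rises were led by chains that line epithelia. Col4a6, a type IV collagen chain, ran from 0.164 to 0.966 CPM at 8 weeks (median 0.403) and from 1.64 to 5.04 CPM at 16 weeks (median 3.68), without overlap (2.79 ± 0.33, edgeR adjusted p = 1.34e-05). Lamc3, Col4a3, Col4a4 and Col4a5 rose by 2.05 to 2.50, and Lama5, the laminin alpha chain of mature epithelial membranes, by 1.65 from a median of 4.94 to 15.7 CPM. These were late rises for Col4a6 and Lama5, with edgeR adjusted p of 0.317 and 0.939 at 8 weeks against chow. The widespread chains Col4a1 and Col4a2 had risen by 8 weeks instead, and their further differences of 0.41 and 0.21 were not called. Col18a1, the precursor of endostatin, and Lama1 fell by 0.45 and 0.55, and the calls of falling members ranged from 0 to 2 over the fits without 1 library. That number was 0 without 8-week replicate 1 or 16-week replicates 2, 5 or 8. It was 1 without any 1 chow library, without 8-week replicates 4, 5, 6, 7 or 8, or without 16-week replicates 3, 4 or 6. With total counts 18 of the 22 rose and 0 fell.

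Collagens of other classes rose in 8 of 11 cases (7 without 8-week replicate 3), with a median of 0.78 and 0 lower. Col6a3 (ENSMUSG00000048126, chr1:90765923-90843971, minus strand), a chain of the beaded type VI collagen, climbed from a chow median of 11.1 CPM to 29.7 to 81.5 CPM at 8 weeks (median 53.2) and 66.1 to 161 CPM at 16 weeks (median 117). The ranges of the 2 times overlapped in part (1.24 ± 0.21, edgeR adjusted p = 0.00059). Its partners Col6a1 and Col6a2 rose by 0.78 and 0.89 and likewise progressed. Col8a1 and Col8a2, short-chain collagens, rose by 1.08 and 1.33.

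Matricellular, proteoglycan and elastic fibre genes numbered 27, of which 15 rose (19 without 8-week replicate 3) and 0 fell, with a median of 0.66. Fbn2, a microfibril protein, had the largest change (3.09 ± 0.46, edgeR adjusted p = 0.000148), from 0 to 1.34 CPM at 8 weeks to 2.1 to 9.6 CPM at 16 weeks. Eln, elastin, rose by 1.23 from a median of 22.7 to 57.8 CPM, and the groups did not overlap. Lum, lumican, a proteoglycan that spaces collagen fibrils, rose by 1.25 from a median of 81.5 to 204 CPM, with 121 CPM as the highest 8-week and 136 CPM as the lowest 16-week liver. Sparcl1, a matricellular protein, rose by 2.21. Thbs1, an activator of latent TGF-beta, rose by 1.01. By contrast Postn, periostin, had reached a plateau, with medians of 11.4, 27.6 and 30.6 CPM on chow, at 8 and at 16 weeks (0.22 ± 0.12, edgeR adjusted p = 0.194). Fn1, fibronectin, differed by -0.27 ± 0.26 (edgeR adjusted p = 0.47).

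Enzymes that cut or crosslink the matrix rose in part. Of 17 matrix metalloproteinases 6 rose and 1 fell, and 11 rose without 8-week replicate 3. Mmp7 (ENSMUSG00000018623, chr9:7692090-7699585, plus strand), matrilysin, which is made by biliary epithelium, ran from 0.0295 to 5.91 CPM at 8 weeks (median 0.613) and from 4.64 to 38.4 CPM at 16 weeks (median 26.6). The highest 8-week value was that of replicate 3, and without it the groups did not overlap (3.92 ± 0.69 with it, edgeR adjusted p = 0.000624, and 4.53 without it). Mmp2, the gelatinase of fibroblasts, rose by 1.35 from a median of 27.8 to 70 CPM, and Mmp12, the macrophage elastase, by 0.75. Mmp19 fell by 0.50. With total counts 10 of the 17 rose and 0 fell.

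Among 6 inhibitors of such enzymes, Serpine2 and Timp3 rose (1.82 and 1.37), and Timp2 and Reck also rose without 8-week replicate 3. Timp3 lay between 4.94 and 59.2 CPM at 8 weeks and between 64.9 and 122 CPM at 16 weeks, without overlap. Timp1, the inhibitor most often followed in fibrosis, had medians of 0.219, 13.5 and 15 CPM on chow, at 8 and at 16 weeks. Its 8-week replicate 3 held 139 CPM, and the change was -0.93 with that library and 0.09 without it (edgeR adjusted p = 0.196 and 0.857), so its direction rested on 1 liver.

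Of 20 genes for collagen folding and crosslinking 6 rose and 3 fell (9 and 3 without 8-week replicate 3). The lysyl oxidases, which crosslink collagen and elastin, rose in 4 of 5 cases, with Loxl1 at 0.91, Lox at 0.75, Loxl3 at 0.48 and Loxl2 at 0.45. Plod2, a lysyl hydroxylase, rose by 0.85. Pcolce2, an enhancer of procollagen processing, fell by 0.85, and Bmp1, a procollagen proteinase, by 0.39. With total counts 10 of the 20 rose and 0 fell.

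Signals that drive scarring rose in some of their ligands and receptors. Of 20 TGF-beta pathway genes 8 rose and 0 fell (9 and 0 without 8-week replicate 3), with a median of 0.43. Tgfb3 and Tgfb2, ligands of the pathway, rose by 1.66 and 1.59, each without overlap between the groups. Tgfb3 lay between 2.71 and 7.23 CPM at 8 weeks and between 10.1 and 20.8 CPM at 16 weeks (edgeR adjusted p = 2.5e-05). Tgfb1, the most studied ligand, was classed as a plateau, with medians of 10.5, 37.5 and 35.2 CPM (edgeR adjusted p = 0.99, and 0.558 without 8-week replicate 3). The sign of its small change turned between settings, from -0.00 ± 0.14 to 0.10 without that library and 0.43 with total counts, where it was called higher (edgeR adjusted p = 0.0397). Ltbp1, Ltbp2 and Ltbp3, which anchor latent TGF-beta in the matrix, rose by 0.98, 1.22 and 0.89, and the receptors Tgfbr1 and Tgfbr2 by 0.66 each.

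Of 17 genes of the Hippo pathway, whose effectors YAP and TAZ act with TEAD factors, 8 rose and 0 fell (9 and 0 without 8-week replicate 3). Ankrd1, a target, went from 0.442 to 2.82 CPM at 8 weeks to 4.38 to 12.4 CPM at 16 weeks (2.41 ± 0.31, edgeR adjusted p = 2.64e-05). Ccn2, connective tissue growth factor and another target, rose by 1.002 from a median of 14.5 to 29.2 CPM. Tead1, Tead2 and Wwtr1, which encodes TAZ, rose by 0.69, 0.87 and 0.52. Yap1 itself was at a plateau (-0.06 ± 0.17, edgeR adjusted p = 0.834).

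Markers of the stellate cell and myofibroblast split. Pdgfra and Pdgfrb, receptors for the growth factors that make these cells divide, rose by 1.63 and 0.83. Pdgfrb lay between 27.4 and 55.5 CPM at 8 weeks (median 38.5) and between 50.6 and 87.4 CPM at 16 weeks (median 71.3), with a narrow overlap (edgeR adjusted p = 0.000388). They were the only 2 of 13 markers called, with or without 8-week replicate 3. The contractile genes depended on that liver, and whether its skeletal muscle transcripts had a part in this was not tested. Acta2, smooth muscle actin, was at 184 CPM there, against a group median of 28.7 CPM and 14.6 to 40.4 CPM at 16 weeks. The change was -0.97 with that library and -0.19 without it (edgeR adjusted p = 0.103 and 0.617). The list's median was -0.38 but 0.36 without 8-week replicate 3 and 0.29 with total counts, so no direction holds for it.

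Of 12 markers of the quiescent stellate cell, 3 rose and 1 fell (5 and 1 without 8-week replicate 3). Adamtsl2, a matrix protein that restrains TGF-beta, rose by 1.18 without overlap between the groups, from 18.7 to 66.5 CPM to 73 to 114 CPM. Lrat, the enzyme that stores vitamin A, differed by 0.08 and was not called. Hgf, a growth factor for hepatocytes, rose by 0.95, a call lost in 8 of the 21 fits without 1 library. The fall, that of Ecm1, was lost without 16-week replicates 2, 5, 6 or 8. With total counts 6 of the 12 rose and 0 fell.

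Of 7 markers of mesothelium, the cell layer over the liver capsule, 5 rose and 0 fell (6 and 0 without 8-week replicate 3). Their sum was 7.19 to 16.3 CPM at 8 weeks and 17 to 29.1 CPM at 16 weeks, without overlap. Gpm6a, a membrane glycoprotein, rose by 2.17 and Wt1, a transcription factor, by 1.39. Only 3 rose without 8-week replicate 4 or without 16-week replicates 1, 4, 6 or 7. Such cells express collagen and basement membrane genes too, and their part in those results was not tested.

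Of 16 markers of the liver sinusoid 4 fell (6 without 8-week replicate 3) and 0 rose, with a median of -0.24 that was 0.11 with total counts, where 1 fell and 2 rose. Clec4g, a lectin of sinusoidal endothelium, ran from 73.8 to 242 CPM at 8 weeks and from 34.3 to 76.8 CPM at 16 weeks (-0.98 ± 0.20, edgeR adjusted p = 0.00221). Dnase1l3, a secreted nuclease, fell by 0.80, Oit3 by 0.59 and Bmp2, which instructs hepatocytes to make hepcidin, by 0.54. Kdr and Lyve1, a growth factor receptor and a hyaluronan receptor of the sinusoid, were not called (-0.23 and -0.03).

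Cd34, absent from healthy sinusoids and present on capillaries, rose by 1.21, from 8.11 to 21.9 CPM at 8 weeks to 25 to 44 CPM at 16 weeks, without overlap. Of the 11 vascular markers it and Apln, a ligand of sprouting vessels, rose and Sox17 and Plvap fell. Without 8-week replicate 3 these counts were 4 and 4, and with total counts 5 and 0. Only 1 rise was left without chow replicates 1, 2 or 3, 8-week replicates 1, 2, 4, 6 or 8 or any 16-week replicate but 5. The falls numbered 1 without 8-week replicates 1, 4, 5, 7 or 8 or 16-week replicates 1, 3, 5, 6 or 7.

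Macrophage markers moved in opposite directions. Of 14 markers of lipid-associated macrophages, which arise from monocytes in fatty liver, 5 rose and 0 fell, and 9 rose without 8-week replicate 3. Gpnmb (ENSMUSG00000029816, chr6:49036546-49070929, plus strand), a glycoprotein of these cells, went from a chow median of 0.287 CPM to 167 to 972 CPM at 8 weeks (median 638) and 849 to 2119 CPM at 16 weeks (median 1067). The overlap between the times was small, and the further change was 1.15 ± 0.30 (edgeR adjusted p = 0.0121). Spp1 (ENSMUSG00000029304, chr5:104435118-104441050, plus strand), osteopontin, which duct cells make as well, rose by 2.16 from a median of 186 to 933 CPM. Cd9 and Fabp5 rose by 0.89 and 0.81. Trem2, a lipid receptor, ran from 16.4 to 545 CPM at 8 weeks (median 56.1) and from 51.9 to 126 CPM at 16 weeks (median 89). Its highest value was that of 8-week replicate 3, and the sign of the change turned with that library (-0.34 with it and 0.73 without it, edgeR adjusted p = 0.676 and 0.0898, or 0.46 with total counts). Limma-voom with sample quality weights called it higher (1.01, adjusted p = 0.00429). The 5 calls became 2 without 16-week replicate 8 and 3 without 8-week replicate 5 or 16-week replicates 2, 5 or 6.

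Kupffer cells are the resident macrophages, seeded before birth. Of 13 of their markers 8 fell and 0 rose in both fits, where 7 had been higher at 8 weeks than on chow. Marco (ENSMUSG00000026390, chr1:120474538-120505024, minus strand), a scavenger receptor, was at a median of 10.02 CPM on chow, between 38.3 and 256 CPM at 8 weeks (median 146) and between 5.94 and 31.7 CPM at 16 weeks (median 17.6). It reversed almost to the chow level without overlap between the 2 times (-2.94 ± 0.38, edgeR adjusted p = 2.64e-05). Timd4 (ENSMUSG00000055546, chr11:46810800-46844332, plus strand), the receptor for dying cells that marks embryo-derived Kupffer cells, was not called at 8 weeks (median 14.2 against 10.6 CPM on chow, edgeR adjusted p = 0.453). It then fell to 0.627 to 2.4 CPM (-3.40 ± 0.40, edgeR adjusted p = 1.34e-05). Clec4f (ENSMUSG00000014542, chr6:83644542-83656187, minus strand), a lectin that marks these cells, had medians of 132, 276 and 83.1 CPM on chow, at 8 and at 16 weeks (-1.63 ± 0.26, edgeR adjusted p = 0.000303).

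Cd163, the hemoglobin scavenger receptor, fell by 4.20, Folr2 by 1.15, Cd5l by 0.71 and Vsig4, a complement receptor, by 0.52. Folr2, Cd5l and Vsig4 had risen by 8 weeks, and the call of Vsig4 was lost in 10 of the 21 fits without 1 library. With total counts 5 of the 13 fell and 2 rose. Nr1h3, the sterol receptor that maintains Kupffer identity, fell by 0.79. General macrophage markers did not follow, with Csf1r at a plateau (-0.10 ± 0.11, edgeR adjusted p = 0.542) and Adgre1, which encodes F4/80, at 0.31 ± 0.14 (edgeR adjusted p = 0.121). Of 8 monocyte markers 1 rose, Cx3cr1, the fractalkine receptor (1.01). Its ligand Cx3cl1 rose by 1.60, from 3.15 to 14 CPM at 8 weeks to 15.8 to 34.7 CPM at 16 weeks, without overlap.

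**Figure D5:**
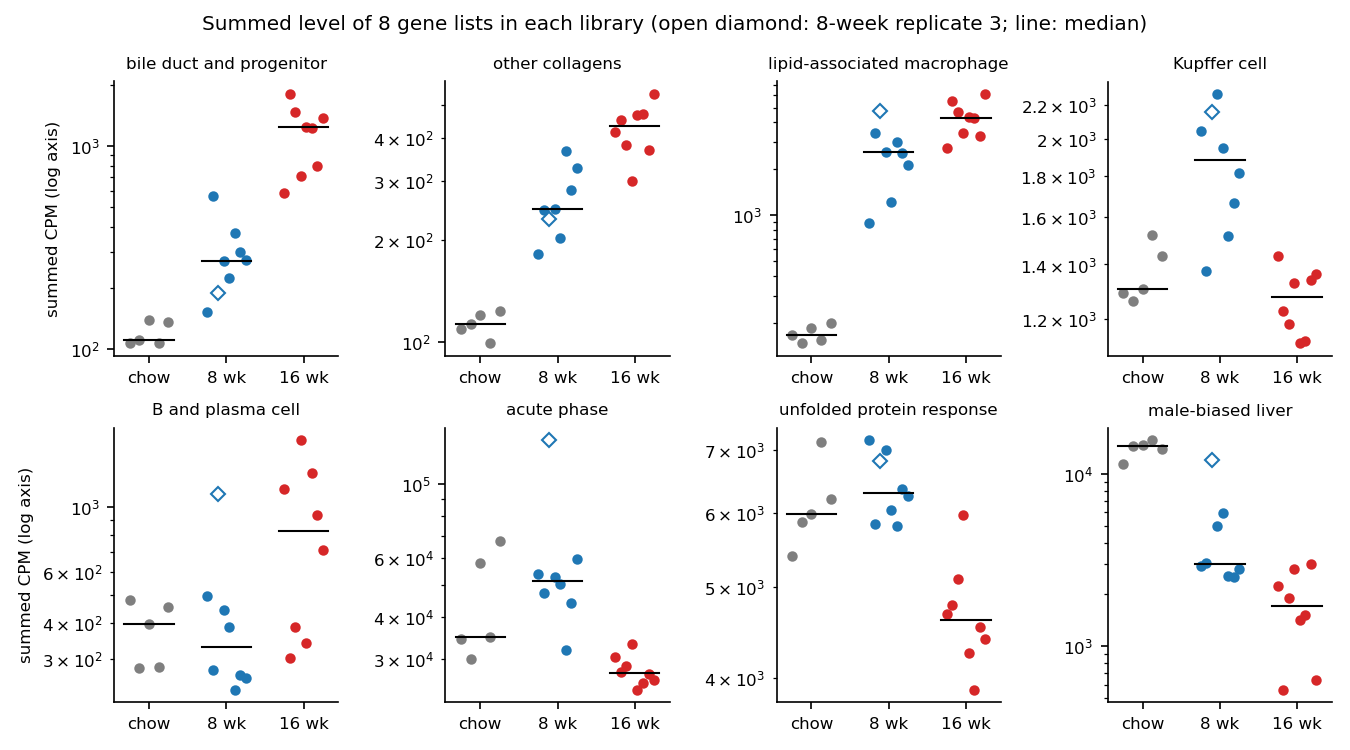
Summed CPM (log axis) of 8 gene lists in each library, by group, with a line at the median and an open diamond for 8-week replicate 3. Bile duct sums rise at both steps, Kupffer cell sums rise and come down, acute phase sums fall from 8 to 16 weeks, and the 16-week B and plasma cell sums spread from 304 to 1692 CPM.

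Antibody genes rose, unevenly between livers. Of 17 B and plasma cell markers 5 rose and 0 fell (8 and 1 without 8-week replicate 3), and all 5 encode antibody chains or proteins that assemble them. Jchain, which joins antibody multimers, was at 3.65 to 15.7 CPM at 8 weeks (median 7.35) and at 9.07 to 99 CPM at 16 weeks (median 40.4; log2 change 2.41 ± 0.54, edgeR adjusted p = 0.00432). Ighm, Igha, Ighg2b and Mzb1, an antibody chaperone, rose by 1.37 to 1.94. Ighg1, named among the progressing genes, rose by 3.03. The B cell markers Ms4a1, Cd79a and Pax5 lay between -0.04 and 0.46 and were not called. The calls fell to 3 without 8-week replicates 5 or 7 or 16-week replicates 1, 6 or 7, and reads of antibody genes can be split among near-identical copies.

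Other immune markers that were higher at 8 weeks than on chow were mostly not called further. Of 23 T and NK cell markers, 21 had been called higher at 8 weeks, and from 8 to 16 weeks 1 rose and 1 fell. Ncr1, an activating NK receptor, rose by 0.89, a call lost without 16-week replicates 5 or 8. Gzma, a granzyme, fell from 1.47 to 7.93 CPM at 8 weeks to 0.736 to 1.27 CPM at 16 weeks (-1.66 ± 0.28, edgeR adjusted p = 0.000492). Cd8a, the CD8 chain, differed by 0.04 ± 0.44 (edgeR adjusted p = 0.963), and 20 of the 23 were undecided. Up to 3 of the 23 rose with 8-week replicate 6 left out, and 2 without 8-week replicates 2 or 4 or 16-week replicates 1 or 7. A further fall was called without 8-week replicates 1, 2, 5, 6 or 8.

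Of 24 chemokines 2 rose and 2 fell (6 and 3 without 8-week replicate 3). Ccl20, which attracts cells with the receptor CCR6, rose by 1.25 with Cx3cl1. Ccl24, an eosinophil attractant made by resident macrophages, reversed from 3.84 to 25.4 CPM at 8 weeks to 1.48 to 3.47 CPM at 16 weeks (-1.98 ± 0.29, edgeR adjusted p = 0.00014). Cxcl13, a B cell attractant, fell by 1.31. Ccl2, the main monocyte attractant, was not called, with medians of 1.1, 12.7 and 12.6 CPM (-0.18 ± 0.29, edgeR adjusted p = 0.69, or 0.14 with total counts). Only 1 rise was left without 8-week replicates 1, 5, 7 or 8 or 16-week replicates 2, 3, 5, 6 or 8, and 1 fall without 8-week replicate 4 or 16-week replicates 2, 5, 6 or 8.

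Among 15 cytokines Lif, a cytokine of the interleukin-6 family, and Tnfsf13b, the B cell survival factor BAFF, rose by 1.36 and 0.97. Il1b, interleukin-1 beta, fell by 0.69 after a rise, and Tnf was not called (0.49 ± 0.21, edgeR adjusted p = 0.0943). Il18 fell as well without 8-week replicate 3, where 3 of the list rose, and 2 falls were also called without 8-week replicate 6. With total counts 7 of the 15 cytokines rose and 0 fell. Of 17 interferon-stimulated genes and 18 genes of antigen presentation, 16 in each list had been higher at 8 weeks. From 8 to 16 weeks the former had 1 rise, Oasl2 (0.55, lost without 16-week replicate 8), and 1 fall, Mx2 (-0.64). The latter had 1 fall, H2-K1, a class I antigen-presenting chain (-0.44, or 0.00 with total counts). Interferon rises numbered 2 to 3 without 8-week replicates 3, 6 or 7 or 16-week replicates 3 or 6, and falls numbered 2 without 8-week replicates 1, 3 or 8. With total counts 4 interferon-stimulated genes rose and 0 fell.

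Transcripts of proteins that hepatocytes secrete fell almost throughout. Of 18 such genes 16 fell and 0 rose, 17 without 8-week replicate 3, with medians of -0.75 and -0.61. The median was -0.29 with total counts, where 9 fell. Most of these had not differed at 8 weeks, when 2 were higher and 2 lower than on chow. Alb, serum albumin, ran from 78185 to 197413 CPM at 8 weeks (median 103728) and from 58587 to 84286 CPM at 16 weeks (median 69688), with a partial overlap (-0.80 ± 0.19, edgeR adjusted p = 0.00665). Ttr, the thyroxine carrier, fell by 1.07 and Serpina1a, an elastase inhibitor whose reads may be shared with its near-identical copies, by 1.12. Of the clotting factors, F2, F7, F10, F11 and F12 fell by 0.56 to 1.25, and F9 fell only without 8-week replicate 3 (-0.38 with it and -0.44 without it).

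Acute phase genes fell in 15 of 20 cases with or without 8-week replicate 3, and 0 rose. The median was -0.97, or -0.53 with total counts, where 4 fell. Their sum was 31940.3 to 134867 CPM at 8 weeks (median 51488) and 24266 to 33282 CPM at 16 weeks (median 27336). Hpx (ENSMUSG00000030895, chr7:105591613-105600137, minus strand), hemopexin, which binds heme, reversed. Its chow median was 7173 CPM, its 8-week range 9441 to 66505 CPM (median 15434) and its 16-week range 7008 to 10616 CPM (median 8198). The highest value was that of 8-week replicate 3, and the change was -1.29 with it and -0.76 without it (edgeR adjusted p = 0.0107 and 0.00822). The 3 fibrinogen chains Fga, Fgb and Fgg fell by 0.73, 0.84 and 0.86, Lbp, which binds endotoxin, by 1.003 and Apcs by 0.995. Saa1 and Saa2, serum amyloids with near-identical sequences, fell by 2.07 and 2.04, but these calls were lost without 5 and 11 single libraries respectively, 16-week replicates 2, 5, 6 and 8 among both.

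Complement genes fell in 12 of 19 cases (11 without 8-week replicate 3) and rose in 0, with a median of -0.56, or -0.17 with total counts, where 3 fell and 1 rose. Mbl2, a lectin that starts complement, fell at both steps, with medians of 383, 193 and 79.8 CPM, and the 2 times did not overlap (-1.28 ± 0.19, edgeR adjusted p = 0.000153). C8a, C8b, C8g and C9, parts of the membrane attack complex, fell by 0.56 to 1.23. C3 fell by 0.43 at an edgeR adjusted p of 0.0498, which was 0.0703 without 8-week replicate 3. The C1q chains, made by macrophages rather than hepatocytes, were not called.

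Of 14 iron genes 6 fell and 0 rose, with a median of -0.54, or -0.05 with total counts. Hamp, hepcidin, the hormone that limits iron release, fell from a median of 751 to 397 CPM (-1.01 ± 0.23, edgeR adjusted p = 0.00404). Its upstream sensors Tfr2 and Tmprss6 fell by 0.80 and 0.62, and Trf, the iron carrier transferrin, by 1.34 (-0.63 without 8-week replicate 3).

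Lipoprotein genes fell in 12 of 16 cases and rose in 0 (11 and 1 without 8-week replicate 3). The median was -1.06 with 8-week replicate 3, -0.59 without it and -0.43 with total counts. Apoa1 (ENSMUSG00000032083, chr9:46228580-46230466, plus strand), the main protein of high-density lipoprotein, was at 7208 to 110824 CPM at 8 weeks (median 14924) and at 5685 to 9474 CPM at 16 weeks (median 7803). The 110824 CPM were those of 8-week replicate 3. The fall was called with it (-1.73 ± 0.45, edgeR adjusted p = 0.0109) and without it (-0.75, edgeR adjusted p = 0.00377). Apoa2, Apoc1, Apoc3 and Apom also fell in both fits. Apob and Mttp, the core protein of VLDL and the enzyme that loads it, had fallen by 8 weeks and differed further by -0.24 and -0.28, which was not called with all libraries.

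The unfolded protein response serves the secretory pathway, as its factors ATF6 and XBP1 switch on chaperones of the endoplasmic reticulum. A sequence that these factors use, the endoplasmic reticulum stress element, is spelled CCAAT, then 9 bases of any kind, then CCACG. Of the 16 genes in the list 13 had a promoter in the RefSeq table (GRCm38.p6, 250 bases before to 50 after the start), and 6 of these (46.2%) held the element on either strand. It was found in 37 of all 27025 genes with a promoter (0.137%). It was the motif shown of 3 that were searched on both strands in 5 lists. The sterol regulatory element (TCAC, any base, CCAC) was in 1 of 13 cholesterol synthesis genes with a promoter and in 1.44% of all genes with one. The match is a description of the letters only. The windows below are shown since they mark which members carry the element, with it in capitals, read 5′ to 3′ on the strand of the gene, and a reverse-strand element reads CGTGG to ATTGG.
Hspa5, chr2:34771995-34772073, plus strand: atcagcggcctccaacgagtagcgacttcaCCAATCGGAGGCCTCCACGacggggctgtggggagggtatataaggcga
Hsp90b1, chr10:86705503-86705686, minus strand: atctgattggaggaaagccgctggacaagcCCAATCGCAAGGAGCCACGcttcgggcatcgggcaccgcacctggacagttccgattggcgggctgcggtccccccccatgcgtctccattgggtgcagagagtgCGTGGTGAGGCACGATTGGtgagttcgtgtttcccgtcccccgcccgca
Calr, chr8:84847045-84847123, minus strand: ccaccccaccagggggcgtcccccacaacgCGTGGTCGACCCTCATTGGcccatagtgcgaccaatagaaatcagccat
Pdia6, chr12:17266461-17266539, plus strand: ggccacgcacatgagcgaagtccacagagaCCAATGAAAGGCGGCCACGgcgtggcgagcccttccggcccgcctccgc
Dnajc3, chr14:118937797-118937875, plus strand: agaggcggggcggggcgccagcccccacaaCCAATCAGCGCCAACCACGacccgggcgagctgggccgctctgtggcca
Creld2, chr15:88819490-88819568, plus strand: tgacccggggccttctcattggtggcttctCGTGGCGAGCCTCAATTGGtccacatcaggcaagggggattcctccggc

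Of the 16 members 5 fell and 0 rose, with a median of -0.37. Without 8-week replicate 3, 14 fell, and without 16-week replicate 4, 9 fell. DESeq2 called 7 lower and limma-voom 15, and 9 were lower at an unadjusted p under 0.05 in edgeR. With total counts 0 fell and 0 rose and the median was -0.02. The sum over the list was 5812 to 7157 CPM at 8 weeks (median 6301) and 3888 to 5958 CPM at 16 weeks (median 4609), with 1 16-week liver inside the 8-week range. Manf (ENSMUSG00000032575, chr9:106838312-106891979, minus strand), a secreted stress protein, reversed, with a chow median of 109 CPM, an 8-week median of 180.2 CPM and a 16-week median of 91.5 CPM (-0.88 ± 0.23, edgeR adjusted p = 0.0124).

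Of the 6 genes with the element, Calr, Creld2 and Dnajc3 fell. Calr (ENSMUSG00000003814, chr8:84841850-84846934, minus strand), calreticulin, which folds glycoproteins, lay between 1126 and 4398 CPM at 8 weeks and between 882 and 1247 CPM at 16 weeks (-0.77 ± 0.22, edgeR adjusted p = 0.02). Creld2 fell by 0.72 and Dnajc3, an inhibitor of the kinase PERK, by 0.38. Hspa5, which encodes the chaperone BiP, Hsp90b1 and Pdia6 were not called with all libraries (-0.34, -0.20 and -0.34). 8-week replicate 3 was the lowest 8-week liver for these 3 genes, at 463, 232 and 253 CPM, and the highest for the 3 called ones. Without it all 6 fell, by 0.33 to 0.58, Hspa5 from an edgeR adjusted p of 0.189 to 0.0144. The related integrated stress response, raised by 8 weeks in 13 of 16 genes, was undecided in 11, with 1 fall, Shmt2, a serine hydroxymethyltransferase (-0.65). A further fall was called without 8-week replicates 1, 3, 5, 6, 7 or 8.

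Of 21 genes of cholesterol synthesis 11 fell and 0 rose, and 17 fell without 8-week replicate 3, with medians of -0.59 and -0.60, or -0.24 with total counts, where 2 fell. The count was 7 without 8-week replicate 5 or 16-week replicates 5 or 6, and 5 without 16-week replicate 8. Mvd, which makes isopentenyl diphosphate, ran from 32.2 to 163 CPM at 8 weeks (median 41.5) and from 10.5 to 36.5 CPM at 16 weeks (median 21.5), close to the chow median of 18.8 CPM. It had risen by 8 weeks and reversed (-1.31 ± 0.33, edgeR adjusted p = 0.0088, and -0.85 without 8-week replicate 3). Fdps, Mvk, Msmo1, Cyp51, Dhcr7 and Fdft1, further steps, fell by 0.62 to 2.18.

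Bile acid genes fell in 11 of 23 cases and rose in 1 (14 and 1 without 8-week replicate 3), with a median of -0.43, or -0.01 with total counts, and 7 fell without 16-week replicate 8. Cyp7a1, the rate-limiting enzyme of bile acid synthesis, was not called at 8 weeks against chow, with medians of 107 and 105.4 CPM (edgeR adjusted p = 0.762), and then fell to 14.6 to 85 CPM (median 46.8; -1.10 ± 0.29, edgeR adjusted p = 0.0123). Cyp8b1, which sets the share of cholic acid, fell likewise from a median of 692 to 275 CPM (-1.05). These are late falls. Cyp7b1 and Cyp27a1 of the alternative route fell at both steps, by 0.92 and 0.78 at the later one, and the call of Cyp7b1 was lost in 13 of the 21 fits without 1 library. Slc10a1, the main bile acid importer, fell at both steps (-0.97), while Abcc4, an exporter that acts when bile is held back, rose by 0.58. The call of Cyp7a1 was lost with total counts and with 8-week replicates 3, 4 and 5 left out together.

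Fatty acid synthesis, which had fallen in 13 of 18 genes by 8 weeks, had 5 further falls and 1 rise (6 and 1 without 8-week replicate 3), with a median of -0.31 that was 0.07 with total counts. The rise was that of Scd1, the desaturase, which had dropped from a chow median of 8784 CPM to 55.2 to 234 CPM at 8 weeks (median 136). It partly came back to 143 to 525.6 CPM at 16 weeks (median 263; 1.03 ± 0.29, edgeR adjusted p = 0.0186) and remained far under chow. Elovl3, an elongase with higher levels in males, fell further by 1.63, and Acss2 and Acacb fell by 0.64 and 0.93. Fasn, fatty acid synthase, fell with all libraries (-0.61) but not without 8-week replicate 3 (-0.38, edgeR adjusted p = 0.0611). The falls numbered 3 without 16-week replicates 2, 3, 5 or 8.

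Genes of lipid droplets and triglyceride fell in 8 of 23 cases and rose in 2, with a median of -0.47, or 0.08 with total counts. Cidec, which fuses lipid droplets, rose by 1.14 from a median of 15.1 to 25.3 CPM, and the fatty acid transporter Cd36 by 0.55. Neither was called without 8-week replicates 1 or 5 or 16-week replicates 2 or 8, and 1 was without 8-week replicates 4 or 8 or 16-week replicate 5. Plin2, the main droplet coat of hepatocytes, was not called (-0.08 ± 0.16, edgeR adjusted p = 0.761). Fitm1, Agpat2, Plin5 and Dgat2 fell by 0.47 to 1.37, and 5 rather than 8 fell without 16-week replicate 8.

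Fatty acid oxidation had 7 falls and 0 rises of 22 (9 and 0 without 8-week replicate 3), with a median of -0.29, or 0.09 with total counts, where 0 fell and 1 rose. Cpt1a, the gate of mitochondrial import, was not called (0.00 ± 0.16, edgeR adjusted p = 0.993).

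Choline and methionine genes fell in 14 of 27 cases and rose in 0 (13 without 8-week replicate 3, 9 without 16-week replicate 8). The median was -0.32, or 0.07 with total counts, where 5 fell. Gnmt, the most abundant methyltransferase of the hepatocyte, ran from 491 to 6603 CPM at 8 weeks (median 1036) and from 396 to 683 CPM at 16 weeks (median 538). Its highest value was that of 8-week replicate 3 (-1.62 ± 0.42 with it and -0.78 without it, edgeR adjusted p = 0.0104 and 0.0052). Ahcy, which clears the product of methylation, and Cbs, which draws homocysteine into cysteine, fell by 1.25 and 1.07. Pemt, which makes phosphatidylcholine without dietary choline, fell by 1.08, or by 0.49 without 8-week replicate 3. Bhmt, Chdh and Mat1a, which use choline-derived betaine, oxidise choline and make S-adenosylmethionine, were not called (-0.25, 0.04 and -0.31).

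Urea cycle and amino acid breakdown fell in 10 of 25 genes and rose in 0 (15 without 8-week replicate 3, 6 without 16-week replicate 5), with a median of -0.50, or -0.09 with total counts. Asl and Otc of the urea cycle fell by 1.26 and 0.42, and Hpd and Fah of tyrosine breakdown by 1.31 and 0.92. Cps1, the entry of the cycle, had fallen by 8 weeks and was undecided (-0.24).

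Of 21 genes of glycolysis and gluconeogenesis 3 rose and 5 fell (3 and 8 without 8-week replicate 3). Hk1 and Pfkp, isoenzymes found mainly outside hepatocytes, rose by 0.52 and 0.80. Slc2a1, the general glucose transporter, rose by 0.36 (edgeR adjusted p = 0.0497), a call lost in 15 of the 21 fits without 1 library.

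Summed levels of cytochrome P450 and pericentral genes were low in 3 CDA-HFD livers. In 16-week replicates 2 and 8 the sum of pericentral markers was 3116.5 and 3409.5 CPM, against 7858 to 10398 CPM in the other 16-week livers, and that of cytochrome P450 genes 4845 and 4459 against 9107 to 11227 CPM. In 8-week replicate 3 these sums were 4276 and 6299 CPM. Of 26 P450 genes 8 fell and 2 rose (11 and 1 without 8-week replicate 3), with a median of -0.45, or -0.11 with total counts. The falls numbered 5 without 16-week replicate 2 or 8 and without 8-week replicate 1 or 5. Cyp2c29 and Cyp2c37 fell by 1.34 and 1.05. Cyp2b9 fell by 1.67 after a large rise by 8 weeks, with medians of 0.029, 42.3 and 16.6 CPM. Cyp2a4 rose by 3.02, from 0.177 to 3.21 CPM to 0.765 to 27.1 CPM, a call lost without 16-week replicate 2, and reads of these families can be split among near-identical copies. The other P450 rise was Cyp2c55, and the rises numbered 0 without 16-week replicate 2. They numbered 1 without chow replicates 2, 3 or 4, 8-week replicates 1, 3, 4, 5, 7 or 8 or 16-week replicates 3, 4, 5, 6 or 8.

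Of 13 pericentral markers 0 were called in edgeR (1 fell without 8-week replicate 3), 0 with DESeq2 and 0 with limma-voom, and 1 was lower at an unadjusted p under 0.05. Glul and Cyp2e1, which surround the central vein, differed by -0.14 ± 0.23 and -0.43 ± 0.34. Conjugation enzymes fell in 6 of 30 cases and rose in 0, with a median of -0.36, or 0.08 with total counts, and 1 fell without 16-week replicate 2 or 8 and 2 without 16-week replicate 5 or 6. Of 13 hepatocyte transcription factors 5 fell and 0 rose, with a median of -0.37, or 0.00 with total counts. Foxa3, a forkhead factor, fell without overlap, from 53.3 to 271 CPM at 8 weeks to 37.7 to 52.3 CPM at 16 weeks (-1.20 ± 0.25, edgeR adjusted p = 0.00285). Hnf4a, the central factor of hepatocyte identity, had fallen by 8 weeks and stayed on a plateau, with medians of 1199, 535 and 471 CPM (-0.26 ± 0.12, edgeR adjusted p = 0.14). Falls in this list numbered 3 without 16-week replicates 2 or 8.

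Oxidative phosphorylation genes of the nucleus fell in 17 of 27 cases (12 without 8-week replicate 3) and rose in 0, with a median of -0.66, or -0.34 without that library and -0.12 with total counts, where 0 fell. The count depended on single livers, at 8 without 8-week replicate 2 or 16-week replicate 2 and 10 without 8-week replicate 4. It was 7, 3, 4, 5 and 2 without 16-week replicates 1, 5, 6, 7 and 8. Cox5b and Ndufv1, subunits of complexes IV and I, fell by 1.30 and 1.07, with 8-week replicate 3 highest in both. Of 13 protein genes of the mitochondrial genome 3 fell (6 without 8-week replicate 3), or 1 without 16-week replicate 5 or 8, and 0 with total counts.

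Male-biased liver genes, which pulses of growth hormone maintain, went on falling. Of 10 genes 9 had been lower at 8 weeks, and 6 fell further and 0 rose (7 without 8-week replicate 3), with a median of -0.91, or -0.55 with total counts, where 3 fell. Only 3 fell without 8-week replicates 4 or 5 or without 16-week replicates 2, 3, 5, 6 or 8. Mup3 (ENSMUSG00000066154, chr4:62083476-62087342, minus strand), a major urinary protein, had a chow median of 8147 CPM, 952 to 8394 CPM at 8 weeks (median 1604) and 133 to 1139.5 CPM at 16 weeks (median 563). The 8394 CPM were those of 8-week replicate 3, and the groups overlapped narrowly (-2.08 ± 0.47 with it and -1.56 without it, edgeR adjusted p = 0.00412 and 0.00535). Hsd3b5, a steroid reductase of male liver, fell by 2.69 from a median of 36.8 to 2.41 CPM. Mup7, Mup11, Mup16 and Mup17 were among the largest progressing falls (-3.17, -3.47, -2.89 and -3.58), and the Mup genes are near-identical, so that counts of single members are uncertain. Of 11 genes of the growth hormone and IGF axis, Igfals, Igf1 and Ghr fell by 1.10, 0.35 and 0.49 and 0 rose (5 fell without 8-week replicate 3). The list's median was -0.35, or 0.08 with total counts. Igfals, which carries IGF1 in blood, went from a median of 114 to 57.2 CPM. The call of Ghr, the growth hormone receptor, was lost in 11 of 21 fits without 1 library, and 1 fall was left without 16-week replicate 6.

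The 10 largest falls, chosen like the largest rises, were those of Cela2a, Timd4, Marco, Mup16, Dnaic1, Ccl24, Chil1, Gzma, Slc25a25 and Mbl2. Cela2a is an exocrine pancreas transcript whose 8-week mean of 116 CPM rested on 1 liver, replicate 4, at 870.4 CPM. Its 8-week median was 2.01 CPM, and its 16-week livers lay between 0.175 and 0.951 CPM. Chil1, a chitinase-like protein, ran from 2.18 to 6.81 CPM at 8 weeks and from 0.627 to 1.95 CPM at 16 weeks, against a chow median of 0.0368 CPM (-1.78 ± 0.40, edgeR adjusted p = 0.0042). Slc25a25, a mitochondrial nucleotide carrier, fell at both steps, with medians of 656, 197 and 94.4 CPM (-1.22 ± 0.21, edgeR adjusted p = 0.000624). Dnaic1, a dynein chain, reversed, with medians of 1.64, 11.3 and 2.7 CPM. All 10 stayed called in each of the 21 fits that left out 1 library.

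The 6 largest reversals after a rise, Cela3b, Clps, Zg16, Ctrb1, Sycn and Prss2, are transcripts of exocrine pancreas. Ctrb1, chymotrypsinogen B, ran from 0 to 3238 CPM at 8 weeks with a median of 4.77 CPM, and from 0 to 1.2 CPM at 16 weeks. Their summed list was highest in the 2 8-week livers already named. It was 47.7, 18.6, 14.9 and 11.5 CPM in 8-week replicates 6, 7, 3 and 8, and 1.24 and 1.47 CPM in replicates 1 and 2. The highest 16-week liver held 3.91 CPM. All 9 tested pancreas markers were called lower at 16 weeks, with or without 8-week replicate 3. Reversals after a fall were led by Tcf24, Serpine2, Noct, Itih5, Zbtb7c and Carmil1. Serpine2, a protease inhibitor also called nexin-1, had medians of 34.5, 9.92 and 35.2 CPM and so returned to chow (1.82 ± 0.26, edgeR adjusted p = 0.000105). Itih5, a hyaluronan-binding matrix protein, had medians of 31.8, 13.4 and 37 CPM, with no overlap between 8 and 16 weeks (1.43 ± 0.16, edgeR adjusted p = 1.01e-05).

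Plateau genes with the largest change by 8 weeks were Slamf8, Procr, Defb1, Adap1, Psat1 and Med12l. Slamf8, a receptor of myeloid cells, had medians of 1.07, 14.6 and 15.2 CPM (0.08 ± 0.20, edgeR adjusted p = 0.811). Psat1, which makes serine, had 1.26, 9.59 and 9.91 CPM (0.14 ± 0.18, edgeR adjusted p = 0.62). Med12l, a subunit of the Mediator complex, stayed low, at 8.63, 1.001 and 0.944 CPM. For each the 16-week range lay largely within the 8-week range.

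Of 25 cell cycle genes 22 had been higher at 8 weeks than on chow, and 6 rose and 0 fell thereafter, with a median of 0.30. Their summed level was 340.4 to 523 CPM at 8 weeks (median 452) and 382 to 605 CPM at 16 weeks (median 419), so its median was not higher at 16 weeks. Mki67, the proliferation antigen, was at 8.59 to 23.2 CPM at 8 weeks (median 12.3) and 11.4 to 36.2 CPM at 16 weeks (median 21.6), with wide overlap. Its change of 0.71 ± 0.23 (edgeR adjusted p = 0.0305) was lost without 8-week replicate 5 or 16-week replicates 2, 5, 6 or 8, and 2 of the list rose without 16-week replicate 8. Top2a, a topoisomerase of dividing cells, rose by 0.92, a call also lost without 16-week replicate 8.

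Of 13 fetal and tumour-associated liver genes 6 rose and 0 fell (7 and 0 without 8-week replicate 3). Gpc3, a surface proteoglycan, rose by 0.98, and Golm1, a Golgi protein, by 0.97. Igf2, the fetal growth factor, rose by 2.48, but 16-week replicate 8 held 24.6 CPM against a group median of 1.5 CPM and the call was lost without it. Afp, alpha-fetoprotein, had risen by 8 weeks and its further change was not called, with medians of 0.712, 4.63 and 5.55 CPM (0.11 ± 0.21, edgeR adjusted p = 0.739, or 0.38 with limma-voom, which called it at an adjusted p of 0.0425).

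Several stress programmes showed few calls. Of 14 NRF2 targets, which answer oxidants, 0 were called in edgeR with or without 8-week replicate 3, 0 had an unadjusted p under 0.05 and 0 were called with DESeq2. With limma-voom sample weights 3 rose, and 8 met the plateau bound. With total counts, where 26% of all genes rose, 4 rose. Hmox1, heme oxygenase, differed by -0.08 ± 0.26 (edgeR adjusted p = 0.851). Of 16 genes of p53 and senescence, Tnfrsf10b, a death receptor, rose (0.90) and Cdkn2a fell (-1.08). The first call was lost without 16-week replicates 2 or 8, and the second in 15 of the 21 fits without 1 library, 8-week replicate 3 among them. Rises numbered 2 without chow replicate 1 or 8-week replicates 3 or 8, and 4 without 8-week replicate 6. Of 20 clock genes Bhlhe41, a repressor, rose (0.90) and 7 met the plateau bound. Among 18 immediate early genes Klf6 rose by 0.68 and Jund fell by 0.60, each lost without 16-week replicates 5 or 8, and Klf6 also without 8-week replicate 5. Rises numbered 4 without 8-week replicate 6, and 2 without 8-week replicates 2, 7 or 8 or 16-week replicates 3, 4 or 7. Without 8-week replicate 3, 2 clock genes rose and 2 immediate early genes fell. With total counts 5 genes of p53 and senescence and 3 immediate early genes rose, and 0 fell in either list.

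Other lists moved in a few members. Of 12 dendritic cell markers Itgae and Xcr1, a receptor of cross-presenting cells, rose by 1.04 and 0.86, and Batf3 fell by 1.68 with 8-week replicate 3 only. The call of Xcr1, and so 1 of the 2 rises, was lost without 16-week replicate 5, and the fall was lost also without 16-week replicates 1, 2, 5, 6, 7 or 8. Of 10 neutrophil markers Ngp rose by 1.48, a call lost in 7 of the 21 fits without 1 library, and 2 rose without 8-week replicate 3. Of 23 lysosome genes 3 rose, among them Ctsk and Ctss, proteases of macrophages (1.07 and 0.68), and 1 rose without 16-week replicate 8. Gaa, a glycogen-degrading enzyme, fell by 0.23, a call lost in 16 of the 21 fits without 1 library, and 2 fell without 8-week replicate 6. Of 19 annexin and S100 genes 4 rose, and S100a13 fell by 1.94 with 8-week replicate 3 and was not called without it (-0.35) or without 16-week replicates 5 or 8. Falls there numbered 2 and 3 without 8-week replicates 1 and 6. Of 9 female-biased liver genes 1 rose, Cyp2a4, and 2 fell, Cyp2b9 among them. Only 1 fell without 8-week replicates 1 or 2 or any 16-week replicate but 6. Rises there numbered 0 without 16-week replicate 2, and 2 without 8-week replicate 2 or 16-week replicate 8. Of 10 periportal markers Cdh1 rose and Hal, which breaks down histidine, fell by 0.72, a call lost without 8-week replicate 5 or 16-week replicates 5 or 6. Falls of periportal markers numbered 4 and 3 without 8-week replicates 3 and 6, and 2 without 16-week replicates 1 or 2. Red blood cell transcripts fell in 4 of 5 cases, in 2 without 16-week replicate 5 and in 1 without 8-week replicate 3 or 16-week replicate 8. With total counts 0 members fell in the dendritic cell, lysosome, annexin and S100, periportal and red blood cell lists. Rises with that scaling numbered 6, 7, 6, 1 and 0 in these lists.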

How the data were processed

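Per the labels' protocols, liver RNA was extracted with RNeasy and made into TruSeq Stranded Total RNA libraries. The deposited values are raw counts of reads per gene. The genome was GRCm38, per the submitters' processing notes, and no aligner, counter or annotation is named in the labels or headers used here. The table held 52636 gene identifiers, and 52489 had a symbol and a GRCm38 position. The values of 21 of 21 single-library files were equal to those of the table, and 0 columns were left unused.

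Genes were filtered with filterByExpr, which kept 17104 genes and 99.9608% of the counts, and libraries were scaled by TMM. A quasi-likelihood model of the 3 groups was fitted to all 21 libraries in edgeR 4.0.16 (R 4.3.3), with Benjamini-Hochberg adjustment over all genes tested. The scripts were checked on simulated data. Alternatives were DESeq2 1.42.0, limma 3.58.1 (voom with sample weights), scaling by total counts, no filter, a fit of the CDA-HFD groups alone, and fits without single or several libraries. The labels give neither batch nor sex, so no such term was fitted. The median chi-square per gene between 2 replicates was at least 1.54, above what sampling noise alone gives, so no libraries were merged.

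Named genes were the 10 largest rises and falls by the smaller change with and without 8-week replicate 3, among genes called in both, at 2 CPM or more in the higher group and without overlap. Added to these were 6 genes per trajectory (5 CPM or more), up to 2 per list (1 CPM or more) and a panel of 27. Other members are named as examples of their list. The members, the 65 lists and the alternatives were chosen with earlier results of these data known. Some genes are not reported here.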

Additional observations from a re-analysis of the deposited data

Results flagged for a closer look

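In 43 of 322 combinations of a named gene and a CDA-HFD group, 1 liver lay far from the other 7, measured as its gap to the nearest liver over the range of the group on the log2 scale. Chance gives about 1 in 20 such combinations. In 33 of the 43 the liver was 8-week replicate 3, the library that stood apart, and the values here are CPM.

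That liver was the highest of its group by a wide gap for genes of secretion and plasma proteins, with Apoa1 at 110824, Hpx at 66505, Trf at 28715, Calr at 4398, Apom at 4394 and F10 at 2521. It was the highest for enzymes of amino acid and methyl metabolism, with Hpd at 7534, Gnmt at 6603, Asl at 1834, Shmt2 at 530.1 and Ahcy at 270.5. Lipid genes followed, with Agpat2 at 1773, Hadha at 1440.4, Fasn at 399.6, Mvd at 163, Fitm1 at 69.2 and Fdps at 42.8. So did Ndufv1 at 1204 and Cox5b at 77.7 of the respiratory chain, Cfb at 705, Foxa3 at 271, Clec4g at 242, Acta2 at 184 and Mx2 at 13.8. It was the lowest for Cyp2e1 at 859.7, Gdf15 at 9.18, Cdh1 at 8.2, Timp3 at 4.94, Ccl2 at 3.27, Top2a at 1.81, Carmil1 at 0.834, F3 at 0.348 and Cldn8 at 0.

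Single other livers stood apart in 10 cases. 8-week replicate 2 was the lowest for Cyp7a1 at 42.3. 16-week replicate 2 was the lowest for Fasn at 66.2 and for Cela2a at 0.175. 16-week replicate 5 was the highest for 5 pancreas transcripts, Ctrb1 at 1.2, Prss2 at 0.211, Sycn at 0.159, Cela3b at 0.123 and Zg16 at 0.0881, all low beside the 8-week livers that carried pancreas. 16-week replicate 8 was the highest for Oasl2 at 62.8 and Igf2 at 24.6.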

How the results depend on the processing

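No paired analysis was possible because the labels give no replicate numbers that pair mice between groups. The counts given here are of genes, and the cause of each shift was not tested. Some of the alternatives have fewer samples or genes. With all libraries 1814 genes rose and 1889 fell, and a fit without 1 library gave 1370 to 2515 rises and 916 to 2827 falls. Over the same fits, progressing rises ran from 677 to 1412, progressing falls from 195 to 762, reversals after a rise from 219 to 1071, reversals after a fall from 82 to 222 and plateaus from 2307 to 4582. The fit of the CDA-HFD groups alone gave 835 falls and has no trajectories. Scaling by total counts gave 4450 rises, 245 falls, 2220 progressing rises, 55 progressing falls, 84 and 199 reversals after a rise and a fall, and 1759 plateaus. DESeq2's Wald test gave 484 progressing falls and 210 reversals after a fall. Limma-voom gave 3003 rises, 1718 progressing rises, 929 progressing falls, 215 reversals after a fall and 4871 plateaus. Without a filter 1082 genes fell, 164 progressed downward and 256 reversed after a rise. Leaving out the libraries with squamous transcripts (8-week replicates 3 and 6, 16-week replicates 1, 4 and 7) gave 2973 rises, 1684 progressing rises, 862 progressing falls and 249 reversals after a fall. Leaving out 8-week replicates 3, 4 and 5 gave 938 falls, 144 reversals after a rise and 4496 plateaus. A plateau bound of 2-fold gave 5164 plateaus.

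Of 162 named genes, 162 kept their direction and side of the threshold with DESeq2, 146 with limma-voom, 127 with total counts and 117 without 8-week replicates 3, 4 and 5. The direction turned for these genes, none of them called as reported except H2-K1. Tgfb1 was called higher with total counts (edgeR adjusted p = 0.0397) and Trem2 with limma-voom (adjusted p = 0.00429). Without the libraries with squamous transcripts Hnf4a and Cyp2e1 were called lower (-0.44 and -0.94, edgeR adjusted p = 0.0179 and 0.0216). With total counts the log2 change was 0.30 for Procr, 0.26 for Defb1, 0.43 for Tgfb1, 0.46 for Trem2, 0.14 for Ccl2 and 0.14 for Hnf4a, and for H2-K1 it was 0.0023. With limma-voom it was 0.042 for Defb1, -0.090 for Med12l, 0.22 for Timp1, 0.058 for Tgfb1 and 1.01 for Trem2. Without the libraries with squamous transcripts it was 0.20 for Timp1, 0.22 for Tgfb1 and 0.95 for Trem2. Without 8-week replicates 3, 4 and 5 it was -0.11 for Med12l, 0.11 for Timp1, 0.12 for Tgfb1, 0.69 for Trem2 and -0.15 for Cd8a. For Tgfb1 it was 0.0067 in the fit of the CDA-HFD groups and 0.039 without a filter. Over the fits without 1 library the sign turned for Slamf8 (-0.033 to 0.17), Procr (-0.12 to 0.083), Adap1 (-0.019 to 0.21), Med12l (-0.057 to 0.19), Timp1 (-1.10 to 0.088), Tgfb1 (-0.060 to 0.10), Trem2 (-0.50 to 0.73) and Cd8a (-0.27 to 0.33). At the lowest depth, 29037525 counts, levels under 1 CPM rest on few reads and carry a counting error that adds to the spread between livers.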
